A study of Caenorhabditis elegans with 4 samples.

Results

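The 359 regions described here are the peaks of the combined NHR-2 list whose centres lie on chromosome III of Caenorhabditis elegans outside a stretch of 330 kb from position 7500000 onward, set aside for the Hox cluster. They were chosen by position alone. They make up 359 of the 378 combined peaks on chromosome III and 15.6% of the whole combined list, which holds another 1921 peaks on the other 5 nuclear chromosomes. The last member before the left-out stretch was combined peak 1227 at 7376173 to 7376622 and the first after it combined peak 1206 at 7854407 to 7854856, while the outermost peaks inside it were combined peaks 1883 and 2148. Peaks of the 2 replicate lists on chromosome III outside that stretch, 4689 in replicate 1 and 4029 in replicate 2, show how strong each region was in each library and what lay below the combined list.

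NHR-2 is a nuclear hormone receptor, a transcription factor with a zinc-finger DNA-binding domain, and nematodes have many more receptors of this kind than mammals. The nhr-2 gene is known to be active early in the embryo. In this species the centres of the autosomes are rich in conserved genes and recombine little, while their arms hold more repeats and recombine more, and the chromosomes have no single centromere.

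Binding was measured by ChIP-seq, in which protein-bound DNA is pulled down and sequenced, in mixed male and hermaphrodite embryos of strain OP99 at 20 °C. All 4 libraries came from this strain. Its genotype is an unc119(ed3) background with the bombarded transgene wgIs99, which carries nhr-2 with TY1, EGFP and FLAG tags and an unc119 marker, and it lists no change to the native nhr-2 gene. Worms were crosslinked in 2% formaldehyde, 2 libraries (replicates 1 and 2) came from anti-GFP immunoprecipitates and 2 from input chromatin, which have no values of their own here. No library from a strain without the tag was analysed here, whole embryos do not resolve cell types, and the labels do not say whether separate cultures gave the replicates.

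Each peak has a score of unstated scale and a peak number, both the authors' own. The peaks at the highest score hold the lowest numbers in each list, so number 1 was taken as the strongest. Below the ceiling the number follows the score closely but not peak by peak, with Spearman's rho of -1.0 in replicate 1, -0.999 in replicate 2 and -0.89 in the combined list, so small differences in number among weaker combined peaks carry no order of score. Scores were compared within a list only. Coordinates are on WormBase WS220, and because no genome or annotation of that build was at hand, peaks were not assigned to genes, exons or promoters and no sequence is shown. A RefSeq gene table of another build, WBcel235, lists the Hox genes lin-39, ceh-13, mab-5 and egl-5 on chromosome III, and whether the left-out stretch bounds them on WS220 was not examined. It also lists unc-119 on chromosome III, and whether any of the 359 peaks falls there was not examined; there, signal of the transgene and of the native gene cannot be told apart. Read depth is unknown, so intervals cover counting error over peaks, as if peaks were independent of each other, although many stand in clusters. With 2 libraries a test across samples would be weak, and no p-values are given.

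The strongest NHR-2 regions of chromosome III were strong in both libraries. They lay mostly inside the middle of the chromosome, as did most members. The first is the fifth peak of the combined list, at 8795518 to 8796028, and was peak 9 in replicate 1 and 4 in replicate 2. The next, combined peak 7 at 3871722 to 3872186, was peak 8 in replicate 1 and 6 in replicate 2. Their scores were at the ceiling in either replicate, 3.67 in replicate 1 and 3.30 in replicate 2, so the peak number and not the score orders them.

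Several strong regions followed between 5.5 and 5.8 Mb, a stretch whose limits were drawn after its peaks were seen. Combined peak 14 at 5525928 to 5526334 ranked 14 in replicate 1 and 16 in replicate 2. Combined peak 18 at 5621254 to 5621651 was peak 15 in replicate 1 and peak 38 in replicate 2. Combined peak 22 at 5668067 to 5668450 was peak 30 in replicate 1 and peak 20 in replicate 2. Thus 3 of the first 5 regions of the chromosome fell within this stretch, and each kept a number under 40 in both libraries. A further region there, combined peak 57 at 5794967 to 5795308, was peak 60 in replicate 1 and peak 54 in replicate 2.

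Of the first 12 regions, 8 lay in the middle 50% of the chromosome and 4 nearer its ends. For so few regions this is near the 60.4% of all members and the 56.8% of all combined peaks there. Combined peak 40 at 8801920 to 8802297 (35 in replicate 1, 60 in replicate 2) stood in the same cluster as the strongest region. Combined peak 84 at 4806336 to 4806623 was peak 101 in replicate 1 and 70 in replicate 2. These complete the 8 in the middle. The 4 toward the ends were combined peak 23 at 12894069 to 12894496, combined peak 46 at 11481207 to 11481708, combined peak 50 at 2125931 to 2126350 and combined peak 62 at 2234223 to 2234542. In replicate 1 they were peaks 22, 37, 52 and 107, and in replicate 2 peaks 27, 72, 64 and 40. The order of the last 2 was thus opposite in the 2 libraries, at peaks 52 and 107 in replicate 1 against 64 and 40 in replicate 2.

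The members spanned the whole range of strength of the combined list. Their numbers ran from 5 to 2290 with a median of 1190. The first 100 combined peaks of the genome held 15 of them and the first 200 held 29. The ceiling score of 3.54 was shared by 258 members (71.9%, 95% exact binomial interval 66.9 to 76.5%), against 75.6% of all combined peaks. The other 101 members scored between 2.17 and 3.09. Their lowest peak number was 1739.

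Interval width moved with strength. A width of 450 bp was shared by 260 members, 94 were narrower, down to 112 bp, and 5 were wider, up to 511 bp. None of the first 12 members had the 450 bp width. Of the first 100 members 87 had another width, against 1 of the last 100. How the authors set interval widths is not given in the sources used here.

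The members were denser in the middle of chromosome III than toward its ends. The middle 50%, from 3445249 to 10335744, held 217 of the 359 members (60.4%, interval 55.2 to 65.5%). It makes up 48.8% of the length left once the Hox stretch is taken off, and 56.8% of all combined peaks lay in the middle 50% of their own chromosome. The density was 33.1 peaks per Mb in the middle and 20.6 per Mb outside it, a ratio of 1.60. Both outer parts were alike, at 19.7 per Mb on the left (68 members) and 21.5 per Mb on the right (74 members). Replicate peaks numbered under 2300, as many per list as the combined list holds, gave 63.3% in the middle for replicate 1 and 57.1% for replicate 2, a mean of 60.2% ± 4.4 (SD, n = 2).

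Part of this excess lay in clusters. When each group of centres chained within 10 kb was counted once, 54.6% of the 207 groups were in the middle, and the interval, 47.5 to 61.5%, included the share of the length. There were 17.2 groups per Mb in the middle and 13.6 per Mb outside, and a group held 1.92 members on average in the middle and 1.51 outside. Members that stood alone were spread much as the length is, with 62 of 129 in the middle (48.1%, interval 39.2 to 57.0%). Groups of at least 3 were centred in the middle in 30 of 41 cases (73.2%, interval 57.1 to 85.8%). Denser stretches chain more centres by construction, so group size and density are not separate measures.

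Within the middle the members had 2 crests with a lower stretch between them. Dividing the chromosome into 16 equal parts, density reached 44.1 per Mb in the part from 31.25 to 37.5% of its extent and 39.5 per Mb in the part from 62.5 to 68.75%. Between them it went down to 21.3 per Mb in the part from 50 to 56.25%, which is also cut by the left-out stretch. The left-out stretch itself held 19 combined peaks, 57.6 per Mb, with combined peak 41 as its strongest and 3 peaks numbered up to 500. How the low part would stand with these peaks put back was not examined. The 500 kb just before the stretch, from 7000001 to 7500000, held 9 members, 18 per Mb. Both replicates had their highest density in one of the crests. Replicate 1 had 49.9 per Mb in the left and 32.5 in the right. Replicate 2 was nearly even, at 40.6 per Mb in the left and 41.8 in the right.

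**Figure D1:**
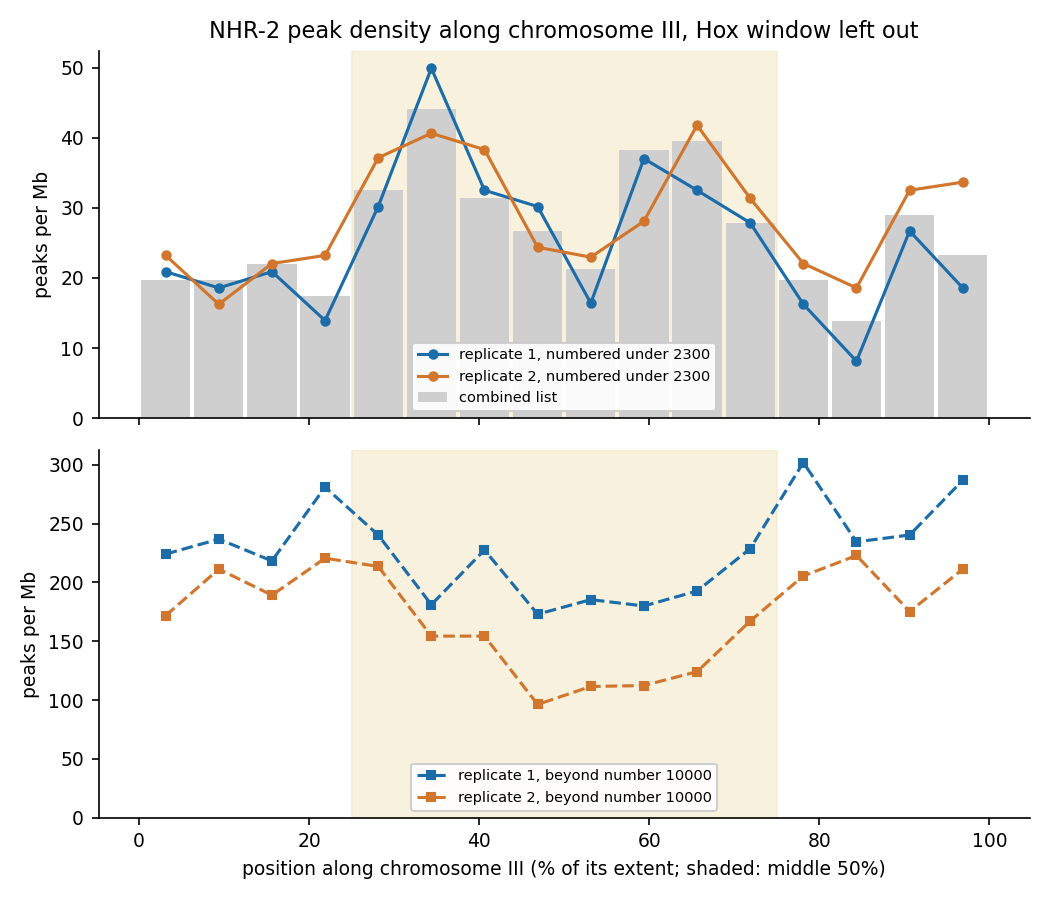
Density of NHR-2 peaks along chromosome III, in peaks per Mb for 16 equal parts of its extent with the Hox stretch left out; the upper panel shows combined peaks as bars and the peaks of each replicate numbered under 2300 as lines, and the lower panel the peaks beyond number 10000. The upper curves are highest in the shaded middle 50%, while the lower curves are lowest there, at 173.0 per Mb in replicate 1 and 96.4 per Mb in replicate 2.

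The fullest of the complete bins of 500 kb ran from 8000001 to 8500000 and held 23 members. Bins of 20 members followed at 4000001 to 4500000, 5000001 to 5500000 and 9000001 to 9500000. The emptiest bins lay at 11500001 to 12000000 with 6 members, at 3000001 to 3500000 with 7 and at 11000001 to 11500000 with 8. No complete bin was without a member. Leaving aside the pair on either side of the left-out stretch, the longest stretch between neighbouring members ran from 2305313 to 2528561.

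In the emptiest bin most members held a lower number in replicate 2 than in replicate 1. In replicate 1 the 6 members there matched peaks 2428 to 10790, none of them numbered under 2300. In replicate 2, 5 of the 6 matched a peak numbered under 2300, led by the member at 11870036 to 11870485, which was peak 987 there and peak 3690 in replicate 1. The member at 11657163 to 11657612 had nearly equal numbers, 2961 in replicate 1 and 2981 in replicate 2. Of all members, 285 matched a peak numbered under 2300 in replicate 1 and 294 did so in replicate 2. The bin was picked as the emptiest and holds 6 members, so these counts cannot show that the libraries differ there. Weak peaks were not scarce in this bin, with 155 peaks of any number in replicate 1 and 162 in replicate 2.

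The central concentration was seen among strong peaks and was reversed among weak ones, in both libraries. Among peaks numbered 1 to 500 on chromosome III, 64.4% of 73 in replicate 1 and 62.2% of 74 in replicate 2 lay in the middle. At numbers over 500 and up to 1000 the shares were 62.7% of 75 and 63.5% of 74. At numbers over 1000 and under 2300 they were 63.2% of 190 in replicate 1 (interval 55.9 to 70.0%) and 53.6% of 237 in replicate 2 (47.0 to 60.1%), and the second interval includes the share of the length.

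The share then went down step by step with peak number in both lists. At 2300 to 5000 it was 55.3% in replicate 1 (n = 441) and 48.0% in replicate 2 (n = 473), and over 5000 up to 10000 it was 48.7% (n = 842) and 46.2% (n = 846). Beyond number 10000 it was 43.2% (interval 41.4 to 45.0%, n = 3068) in replicate 1 and 40.4% (38.4 to 42.5%, n = 2325) in replicate 2, both below the 48.8% of the length. The difference between numbers 1 to 1000 and numbers beyond 10000 was 20.3 percentage points in replicate 1 and 22.4 in replicate 2, a mean of 21.4 ± 1.5 (SD, n = 2). Weak peaks were thus more frequent toward the ends, and whether signal in the input libraries or read mapping there moves with them was not tested.

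**Figure D2:**
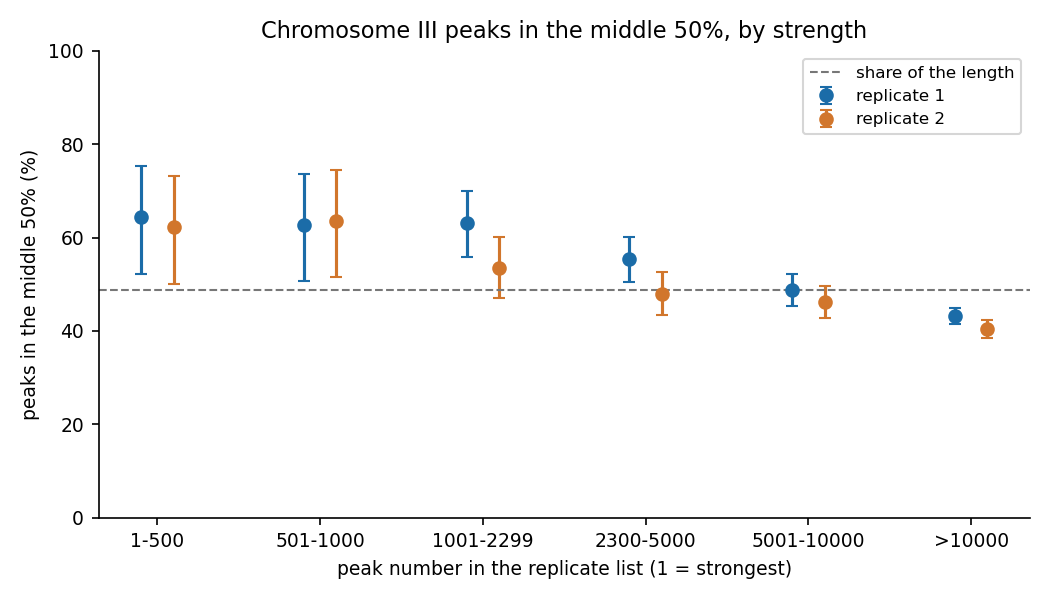
Share of chromosome III peaks in the middle 50% of the chromosome (percent, vertical axis) by class of peak number in each replicate list (horizontal axis); points are shares, bars are exact 95% binomial intervals and the dashed line is the share of the length, 48.8%. Both replicates start above the line, at 64.4% and 62.2%, and end below it, at 43.2% and 40.4%.

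Within the combined list such a trend was weak and depended on where the list was cut. The first 100 members were in the middle in 68.0% of cases (interval 57.9 to 77.0%), the last 100 in 55.0% (44.7 to 65.0%) and the 159 between them in 59.1% (51.1 to 66.8%), and these intervals overlap. The interval of the last 100 includes the 48.8% of the length. In the stronger 50% of the list, 60.8% of 171 members lay in the middle, close to the share of all 359. Spearman's correlation between peak number and distance from the midpoint was 0.051 over the 359 members, which share the same 2 libraries.

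Chromosomes I and II, the autosomes of nearest peak number, were set beside chromosome III. The middle held 56.9% of 404 combined peaks on I (interval 51.9 to 61.8%) and 59.7% of 377 on II (54.5 to 64.7%), and both intervals overlap that of chromosome III. On V the share was 61.8% of 304, while it was 53.4% of 309 on IV and 49.7% of 527 on X. The other chromosomes were taken whole, so their middle is 50% of the length, against 48.8% for III without the Hox stretch. With that stretch kept in, III had 62.4% of 378 in the middle. The share on V thus lay above that of III without the stretch and below that of III with it. The drop from numbers 1 to 1000 to numbers beyond 10000 was 14.8 points in replicate 1 and 14.3 in replicate 2 on I, and 20.9 and 19.1 on II. The differences between chromosomes were not tested, and every one of the 6 nuclear chromosomes had a higher share among numbers 1 to 1000 in both replicates, by 8.88 to 22.4 points.

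Nearly all members were called in both libraries. A replicate 1 peak overlapped all 359, and a replicate 2 peak overlapped 356, so that 99.2% had both (interval 97.6 to 99.8%) against 98.9% of all combined peaks. The combined list belongs to the same libraries, so this shows what it kept and is no independent repeat. Matches within the first 5000 of both lists were found for 327 members (91.1%, against 90.4% of all combined peaks), and matches numbered under 2300 in both for 232 (64.6%, against 64.0%). Centres were close, with a median distance between a member and its best matching peak of 17 bp in replicate 1 and 18.8 bp in replicate 2, and 90% lay within 86 bp and 84.5 bp.

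The 3 members without a replicate 2 peak were well placed in replicate 1. They were combined peak 1326 at 5138882 to 5139331, peak 517 in replicate 1, combined peak 2032 at 8356215 to 8356664, peak 1383, and combined peak 2284 at 10344643 to 10345092, peak 918. A missing overlap in the shorter replicate 2 list does not show that a region was unbound there, since depth is unknown.

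Peak order agreed in part. Across the 356 members seen in both lists, Spearman's rho between the 2 numbers was 0.58 and Pearson's r, on a log10 scale, was 0.72, as descriptions over peaks that share libraries. The lists name IDR, a filter on how alike replicates rank their peaks, as part of their source. If it chose the members, agreement in number was part of that choice, so these values are no free measure of agreement. Numbers were within 2-fold of each other for 224 members and more than 10-fold apart for 6. Neither library ranked the members consistently higher, with the lower number in replicate 1 for 171 and in replicate 2 for 185.

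The largest disagreements were mostly regions strong in replicate 1 and weak in replicate 2. Combined peak 1269 at 6078802 to 6079251 was peak 554 in replicate 1, at the ceiling score, and peak 20589 in replicate 2, with a score of 0.011. Combined peak 1225 at 1923481 to 1923930 was peak 632 in replicate 1 and peak 19574 in replicate 2. Combined peak 2045 at 9118189 to 9118638 was peak 1400 against 18934, and combined peak 2082 at 6475401 to 6475850 was peak 1282 against 16674. The opposite case among the 5 largest was combined peak 2202 at 8903988 to 8904437, with number 17118 in replicate 1 and number 1280 in replicate 2. Members without a match in the first 5000 of both lists numbered 32, none stronger than combined peak 1155, and 16 of them stood in groups of at least 3, 50.0% with an interval of 31.9 to 68.1%, which includes the 43.5% of all members and the 41.1% of all combined peaks in such groups.

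**Figure D3:**
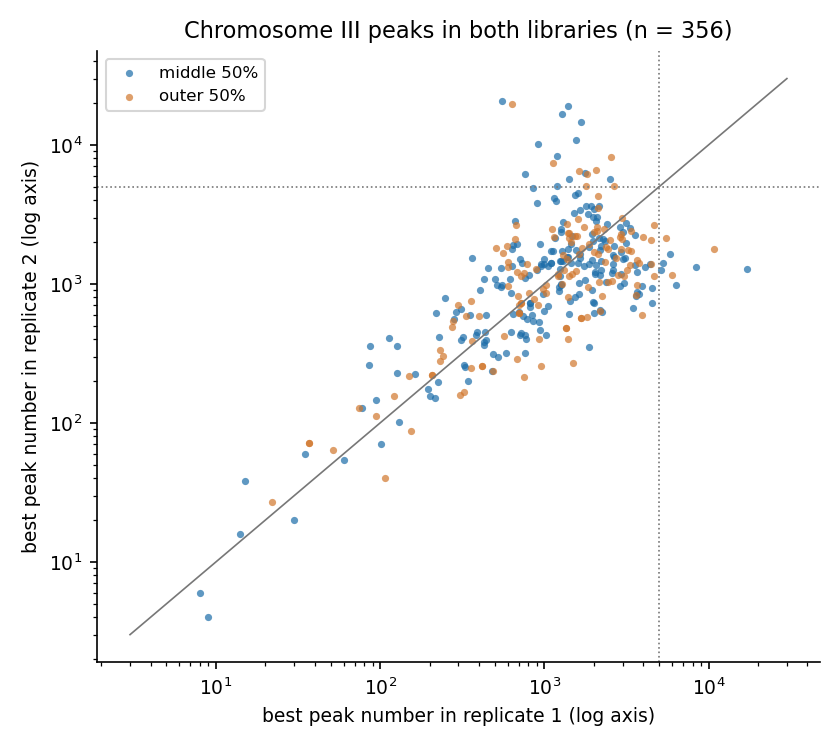
Best overlapping peak number of each chromosome III member in replicate 1 (horizontal, log axis) and replicate 2 (vertical, log axis), n = 356, coloured by position in the middle or outer 50%; the solid line marks equal numbers and the dotted lines number 5000. Points narrow to the line at low numbers and spread beyond about 1000, with 20 members above number 5000 in replicate 2 and 9 in replicate 1.

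NHR-2 regions on chromosome III often stood close together. Of the 359 members, 230 had another centre within 10 kb (64.1%, interval 58.9 to 69.0%), against 63.1% of all combined peaks. Groups of at least 3 held 156 members (43.5%, interval 38.3 to 48.8%), against 41.1% of all combined peaks. The 207 groups comprised 129 single members, 37 of 2, 24 of 3, 8 of 4, 5 of 5 and 4 of at least 6. These counts and the share with a neighbour include members that overlap each other. Some groups of 2 are no more than such a pair, as with combined peaks 720 and 1425, centred 203 bp apart. With overlapping intervals merged, 43.0% of 349 regions stood in groups of at least 3. Groups of at least 3 spanned a median of 8.79 kb, from 2.02 to 27.7 kb.

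The largest group held 8 members between 4448133 and 4475869. Its strongest, combined peak 118 at 4461384 to 4461741, was peak 95 in replicate 1 and 146 in replicate 2. The other 7 had combined numbers from 1002 to 1921. They flanked the strong region on both sides, the farthest 14.1 kb away, so this group was a single strong region amid moderate ones.

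The next group was more compact and more even. It held 7 members between 12607313 and 12617230, 9.92 kb, in the right outer part of the chromosome, and all 7 were at the ceiling score. Its leading members were combined peak 206 at 12612429 to 12612675 (208 in replicate 1, 222 in replicate 2), combined peak 258 at 12613575 to 12613833 (peaks 232 and 334) and combined peak 406 at 12611375 to 12611551 (peaks 300 and 703). All 7 had a match within the first 1886 peaks of both replicates. Combined peaks 206 and 1672 of this group overlap, with centres 178.5 bp apart, and have the same best peak in each replicate, so the 7 members are 6 separate regions.

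Both groups of 6 lay in the middle. The first, from 5138882 to 5151295, was led by combined peak 189 at 5151000 to 5151295 (164 in replicate 1, 224 in replicate 2), and its farthest member was the region with no replicate 2 peak named above. The second, from 9964493 to 9978737, was led by combined peak 142 at 9965407 to 9965759 (86 in replicate 1, 260 in replicate 2). It held the weakest member but 2 of the whole set, combined peak 2278 at 9964493 to 9964942, 0.866 kb from its strongest.

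**Figure D4:**
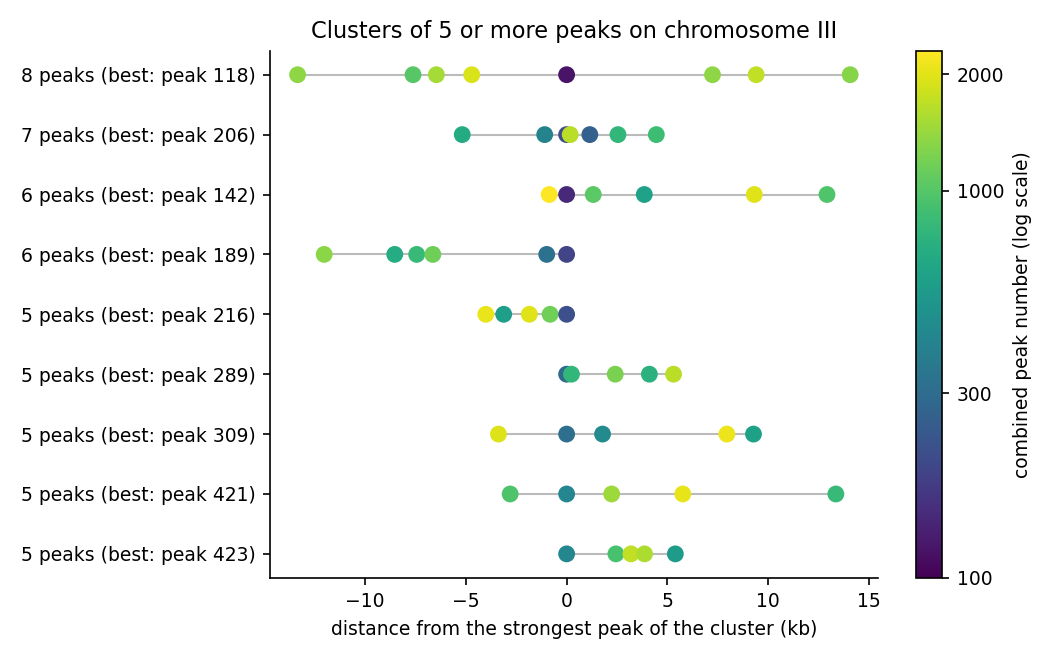
The 9 groups of at least 5 members on chromosome III; each row is a group, each point a peak placed by its distance in kb from the strongest peak of the group, and colour gives the combined peak number on a log scale. The strongest point of each row is numbered between 118 and 423, and the others are numbered up to 2278. Some rows hold further strong points, such as peaks 258 and 406 beside peak 206, and peak 328 beside peak 189.

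Groups usually combined strong and moderate regions. Of the 41 groups of at least 3, 29 held a member numbered up to 500, and in 25 of these another member was numbered beyond 1000. Among all 359 members, 71 were numbered up to 500 and 205 beyond 1000, so a group of this size is likely to hold one of the latter. The same counts over groups of all combined peaks were not made. Of the first 12 members, 5 stood alone and 5 in groups of at least 3. Combined peak 46, counted as a group of 2, was joined by nothing but a repeat listing of its own interval. Of the first 100 members 52.0% stood in groups of at least 3 (interval 41.8 to 62.1%) and of the last 100 33.0% (23.9 to 43.1%), against 41.1% of all combined peaks. The strongest region of the chromosome shared its group with combined peaks 40 and 537, and the next with combined peaks 449 and 294 on either side.

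Some neighbouring members overlapped each other, and 1 interval was listed again. The interval 11481207 to 11481708 stands in the combined list as peak 46 and again as peak 2273, so the 359 members are 358 distinct intervals. In all, 10 pairs of adjacent members overlapped, with centres no more than 240.5 bp apart. In 9 of these pairs both members had the same best peak in both replicates, such as combined peaks 720 and 1425 at 833613 to 834062 and 833816 to 834265, both matched by peak 718 in replicate 1 and peak 725 in replicate 2. Merging overlapping intervals left 349 regions, of which 61.6% lay in the middle.

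Below the combined list lay many weaker peaks, a large part of them found in 1 library. Of the 4689 replicate 1 peaks on chromosome III outside the Hox stretch 46.6% overlapped a replicate 2 peak (interval 45.2 to 48.0%), against 42.3% of the whole list. Of the 4029 replicate 2 peaks 54.0% overlapped a replicate 1 peak (52.5 to 55.6%), against 51.9% of the whole list. Overlap followed strength. It was 100% for numbers 1 to 500 in both lists, against 99.8% in both whole lists. For numbers over 1000 and under 2300 it was 92.6% in replicate 1 and 92.0% in replicate 2, against 89.1% and 90.9%, and for 2300 to 5000 it was 71.9% and 67.0%, against 68.2% and 68.4%. Beyond 10000 it was 36.9% and 43.5%, against 32.1% and 41.4%. The shares of chromosome III lay near those of the whole lists.

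The combined list took up the strongest peaks of both libraries on chromosome III and left out most of the rest. A combined peak overlapped 432 replicate 1 peaks (9.21%, against 9.28% of the whole list) and 447 replicate 2 peaks (11.1%, against 11.7%). All 148 replicate 1 peaks numbered up to 1000 overlapped a combined peak, as did 146 of the 148 in replicate 2, against 98.1% and 98.4% of all peaks up to that number. At 2300 to 5000 the shares were 18.6% and 14.4%, against 16.2% and 18.1% in the whole lists. Left outside were 1757 replicate 1 peaks that overlapped a replicate 2 peak, but only 102 of them were within the first 5000 of both lists and 6 were numbered under 2300 in both.

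Of these 102 regions outside the combined list, 58.8% lay in the middle by replicate 1 (interval 48.6 to 68.5%), as did 56.7% of the 104 corresponding replicate 2 peaks (46.7 to 66.4%). Both intervals include the share of the members and the share of the length. Among all 1757 shared peaks outside the list the share was 45.2% (42.9 to 47.6%), and among the 2500 replicate 1 peaks with no replicate 2 overlap it was 45.4% (43.4 to 47.3%). In replicate 2 these last 2 shares were 44.9% and 38.9%.

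The strongest peaks left out were mostly seen well in 1 library. If IDR made the combined list, leaving out peaks of unlike rank was part of its making. In replicate 1 they were peaks 1151 at 4948542 to 4948941, 1182 at 5940517 to 5940916, 1192 at 5541952 to 5542351, 1218 at 4523391 to 4523790 and 1253 at 1905620 to 1906019. All 5 scored at the ceiling of 3.67, but 4 had no replicate 2 overlap and peak 1192 matched replicate 2 peak 6218. In replicate 2 the strongest was peak 698 at 9191061 to 9191530, at the ceiling of 3.30 and matched by replicate 1 peak 2356. Next came peak 789 at 10818646 to 10819115, matched by replicate 1 peak 15504, and peak 1043 at 13105495 to 13105964, with no replicate 1 overlap. Peak 1064 at 8905238 to 8905707, matched by replicate 1 peak 6228, lay 1.26 kb from the member at 8903988 to 8904437, which was also strong in replicate 2 and weak in replicate 1. The last of the 5 was peak 1081 at 4934835 to 4935304, matched by replicate 1 peak 21214.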

How the data were processed

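Peak lists of 2 ChIP libraries and their combined list were used. Per the file headers, coordinates are on WormBase WS220, and the deposited files' source column names SPP via IDR, a caller and a filter on how alike replicates rank their peaks. Each deposited score is the authors' value. The aligner, versions, thresholds, use of the input and the way the lists were combined are not given in the sources used. The combined list held 2299 peaks.

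Chromosome extent ran from base 1 to the last deposited peak, 13780992, and 13.5 Mb remained without the Hox stretch. Overlap meant at least 1 bp, and a member's match was its lowest-numbered overlapping peak. Intervals are exact (Clopper-Pearson, 95%). Overlap, merging, clustering and position were tested on simulated data. Python 3.11.15, numpy 2.4.6, pandas 2.3.3 and scipy 1.17.1 were used. Regions were named by fixed rules: the 12 lowest-numbered members, groups of at least 6, members unmatched in a replicate, the 5 of most unequal numbers, the 5 strongest peaks left out per list, and extreme bins, with ties kept. Other members were chosen as examples after their values were seen. The members and lists were chosen with earlier results of these data known.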

Additional observations from a re-analysis of the deposited data

How the results depend on the processing

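The share of members in the middle ranged from 54.6 to 63.3% over the alternatives that kept the middle at 50%, and the density ratio from 1.26 to 1.81 over all of its alternatives, with the middle denser in each. It was 57.1% without replicate 1 and 63.3% without replicate 2, each from the other replicate's peaks numbered under 2300. It was 48.2% in the middle 40% and 68.5% in the middle 60%, where the length changes by construction, and 54.6%, a density ratio of 1.26, with each cluster counted once, chosen after seeing the data. Overlap in both replicates was 82.7% at a reciprocal overlap of 50%, 97.5% for centres within 200 bp and 100% in the stronger 50% of the list. Under these settings rho was 0.45, 0.56 and 0.59. The share in groups of at least 3 was 25.7% and density 12.7 per Mb in the stronger 50%, which holds fewer peaks. That share was 35.3% without replicate 1, 42.3% without replicate 2, 30.1% at 5 kb and 53.8% at 20 kb. Replicate 1 overlap was 32.9% at reciprocal 50%, 33.9% for centres within 200 bp and 69.5% for peaks numbered under 2300; replicate 2 overlap was 38.3%, 39.5% and 61.3%. Otherwise the cause of a shift was not tested. Depth is unknown. No paired analysis was possible because peak lists hold no separate values for the inputs.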
